A study of Gossypium hirsutum with 17 samples.

Results

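The comparison described here is that of salinity with control in cotton seedlings, which takes in 6 of the 17 arrays of the study: 3 arrays labelled Cotton_salinity and 3 labelled Cotton_CK, called NaCl and control below. Because NaCl replicate 2 resembled the cold arrays, the comparison was made with the 3 NaCl arrays and again without that array, which leaves 5 arrays. The counts of calls are given for both, while some single transcripts are given for 1 of them only. Whole seedlings of upland cotton (Gossypium hirsutum, 1 cultivar throughout) were germinated for 4 days and then kept for 10 days on reduced-strength MS medium with 200 mM NaCl; the labels describe the control only as normal growth conditions. All seedlings were harvested 14 days after germination, and the growth chamber was kept at 25°C. The mannitol arrays (200 mM mannitol, 10 days, 25°C) and the cold arrays (the last 2 days at 4°C), 3 of each, are used below for side-by-side values. Values of 3 ABA arrays (1 µM ABA, 10 days, 25°C) are also given for some transcripts. The same holds for 2 pH arrays (medium of pH 11, 10 days, 25°C). The medium of the NaCl, mannitol, cold and ABA seedlings had a pH of 5.8, and none is given for the control. The labels call each array a biological replicate, while the study's methods state that RNA was pooled from the replicates of each treatment. The p-values thus describe the spread between arrays of the same condition, taken over all 17 arrays, which may be technical.

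Salt reaches a seedling as an osmotic stress, which limits water uptake, and as an ionic stress, in which sodium displaces potassium and disturbs enzymes. In Arabidopsis, a rise of cytosolic calcium is read by CBL proteins, which activate CIPK protein kinases, and the CIPK known as SOS2 switches on sodium export at the plasma membrane. Vacuolar NHX antiporters load sodium into the vacuole in exchange for protons. The hormone abscisic acid (ABA) carries much of the osmotic signal and acts through inhibition of type 2C protein phosphatases (PP2C). Compatible solutes, LEA proteins, antioxidant enzymes and changes of the cell wall are classical parts of the later response, and starch can be broken down to supply sugars.

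Each array gave 1 signal intensity per probe set, and values below are log2 signals after the 17 arrays were quantile normalized, on a scale whose median is 6.04. The NaCl arrays were less alike than the control arrays. Across the 24029 probe sets tested, Pearson's r between control arrays was 0.934 to 0.946, while NaCl replicates 1 and 3 correlated at 0.856, replicates 2 and 3 at 0.872 and replicates 1 and 2 at 0.799. NaCl replicate 2 was closest to cold replicate 2 (r 0.941) and lay at 0.891 to 0.897 from the controls. NaCl replicate 1 had a median deposited signal of 5.38, against 35.8 to 37.6 in the controls, 44.0 in NaCl replicate 2 and 37.3 in NaCl replicate 3, although its added BioB hybridization control read 363 against 213 to 222 in the controls. The log2 ratio of the 3′ to the 5′ actin probe set, a sign of RNA quality, was 4.79, 2.70 and 3.64 in NaCl replicates 1, 2 and 3 and 2.78 to 3.05 in the controls. The part of these differences in the results was not tested. Of the markers for green tissue only 1 named probe set was found, photosystem II 44 kDa protein (Gra.1806.1.S1_at), at 5.80 to 6.57 in the controls and 5.5 to 6.5 under NaCl. Lea14-A, the 1 seed and embryo marker, is given below. Of 5 fibre-cell markers 0 were called with the 3 NaCl arrays, and a lipid transfer protein (GhiAffx.15712.3.S1_x_at) rose without replicate 2, from 9.28, 9.08 and 9.36 in the controls to 10.69, 8.23 and 10.51 in the NaCl arrays, at 1.36 ± 0.298 (adjusted p 0.027). The fibre factor myb family transcription factor 2 (GarAffx.37322.1.S1_s_at) read 3.25, 3.24 and 2.58 in the controls and 5.63, 2.45 and 4.88 under NaCl, at 2.23 ± 0.61 (adjusted p 0.059) without replicate 2, and the other 3 differed by at most 0.33 in that fit. Over all probe sets, 0.695% were called with the 3 NaCl arrays and 4.22% without replicate 2. The part of these markers in the results was not tested, and no organ of the seedling could be checked further from named markers. In whole seedlings, a smaller share of an organ and less RNA per cell cannot be told apart.

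**Figure D1:**
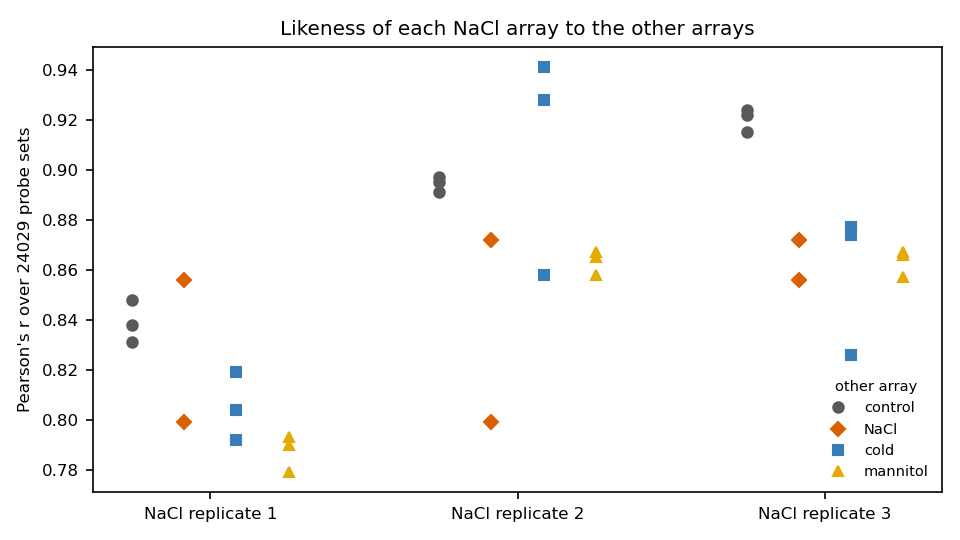
Pearson's r (vertical axis, over 24029 probe sets of normalized log2 signal) between each NaCl array (horizontal axis) and every control, NaCl, cold and mannitol array, 1 point per pair of arrays. NaCl replicate 3 lies closest to the controls, and NaCl replicate 2 lies closest to cold replicate 2, at 0.941, above its values of 0.891 to 0.897 with the controls.

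Single transcripts showed where replicate 2 stood apart. Late elongated hypocotyl (Ghi.1410.1.A1_s_at), a clock transcription factor that in Arabidopsis peaks around dawn, read 11.09, 11.14 and 11.07 in the controls and 11.51, 5.42 and 10.87 in NaCl replicates 1, 2 and 3. Replicate 2 thus lay with cold (5.15 to 5.66), mannitol (4.35 to 5.16) and pH (5.27 to 5.32), whereas the other NaCl arrays lay with the controls and near ABA (9.98 to 10.5). A pseudo-response regulator of the clock, named APRR7-like (Ghi.4889.1.A1_s_at), also read lower in replicate 2 (6.93) than in NaCl replicates 1 and 3 (10.19 and 9.19) and in the controls (9.03, 8.65 and 8.84). CBF20 (GhiAffx.60224.1.S1_s_at), of the CBF/DREB1 family known for its induction by cold, read 10.01 in replicate 2 against 7.8 and 7.24 in NaCl replicates 1 and 3, 7.79, 7.6 and 7.33 in the controls, 9.74 to 9.95 in cold and 8.99 to 9.4 in mannitol. A DRE-binding factor (Ghi.3215.1.S1_s_at) followed the same order, with 7.98, 10.83 and 8.23 in the NaCl arrays, 8.77, 8.6 and 8.51 in the controls and 10.81 to 11.33 in cold, but here mannitol (11.64 to 11.75), ABA (10.53 to 11.53) and pH (10.58 to 11.07) were as high. None of the 5 clock and 4 cold-response probe sets was called under NaCl in either fit, and the part of these values in the differences described below was not tested.

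The first question was how many transcripts differed between NaCl and control. A call needed a 2-fold difference and an adjusted p (Benjamini-Hochberg) no higher than 0.05 in limma, fitted to all 17 arrays with 1 coefficient per condition. With the 3 NaCl arrays, 112 of 24029 probe sets rose (0.466%) and 55 fell (0.229%). Without NaCl replicate 2, 558 rose (2.32%) and 457 fell (1.9%). The nested fits share 5 of the 6 arrays: 111 of the 112 rises (99.1%) and 51 of the 55 falls (92.7%) were also called without replicate 2, where they made up 19.9% of the rises and 11.2% of the falls. A fold change above 10 was seen in 24 called probe sets with 3 arrays and in 123 without replicate 2. Some of these folds start from control values at the foot of the scale, as in Ghi.6826.1.A1_at, with means of -1.99 in the controls and 3.85 in the 3 NaCl arrays. In 275 of the 1015 calls without replicate 2, even the higher group lay below the median of all probe sets. The median change over all probe sets was -0.03 and -0.02. Changes are given below as log2 differences ± SE, first with the 3 NaCl arrays and then without replicate 2 where both are given. Array values are in the order of the replicate numbers.

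These calls rested on a spread estimated over all conditions. Fitted by limma to the control and NaCl arrays alone, no probe set was called with or without replicate 2, while 1391 and 2602 had an unadjusted p of at most 0.05 and a fold of at least 2. Rises made up 67.1% of the calls with 3 NaCl arrays and 55% without replicate 2; with no rescaling of the arrays, where the median of all probe sets lay at -0.79 and -1.31, 3 and 216 probe sets were called and rises made up 66.7% and 7.41%. SAM, the permutation method named in the study, called 1 probe set with the 3 NaCl arrays and 16 without replicate 2. Single arrays also set the counts. With 3 NaCl arrays, the 167 calls became 76 without NaCl replicate 1, 570 without NaCl replicate 3, and 38, 53 and 50 without control replicates 1, 2 and 3. Without NaCl replicate 2, the 1015 calls became 343 when NaCl replicate 1, the array of low signal, was dropped too, and 475, 594 and 530 without control replicates 1, 2 and 3, while 3967 were called when NaCl replicate 1 stood alone.

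**Figure D2:**
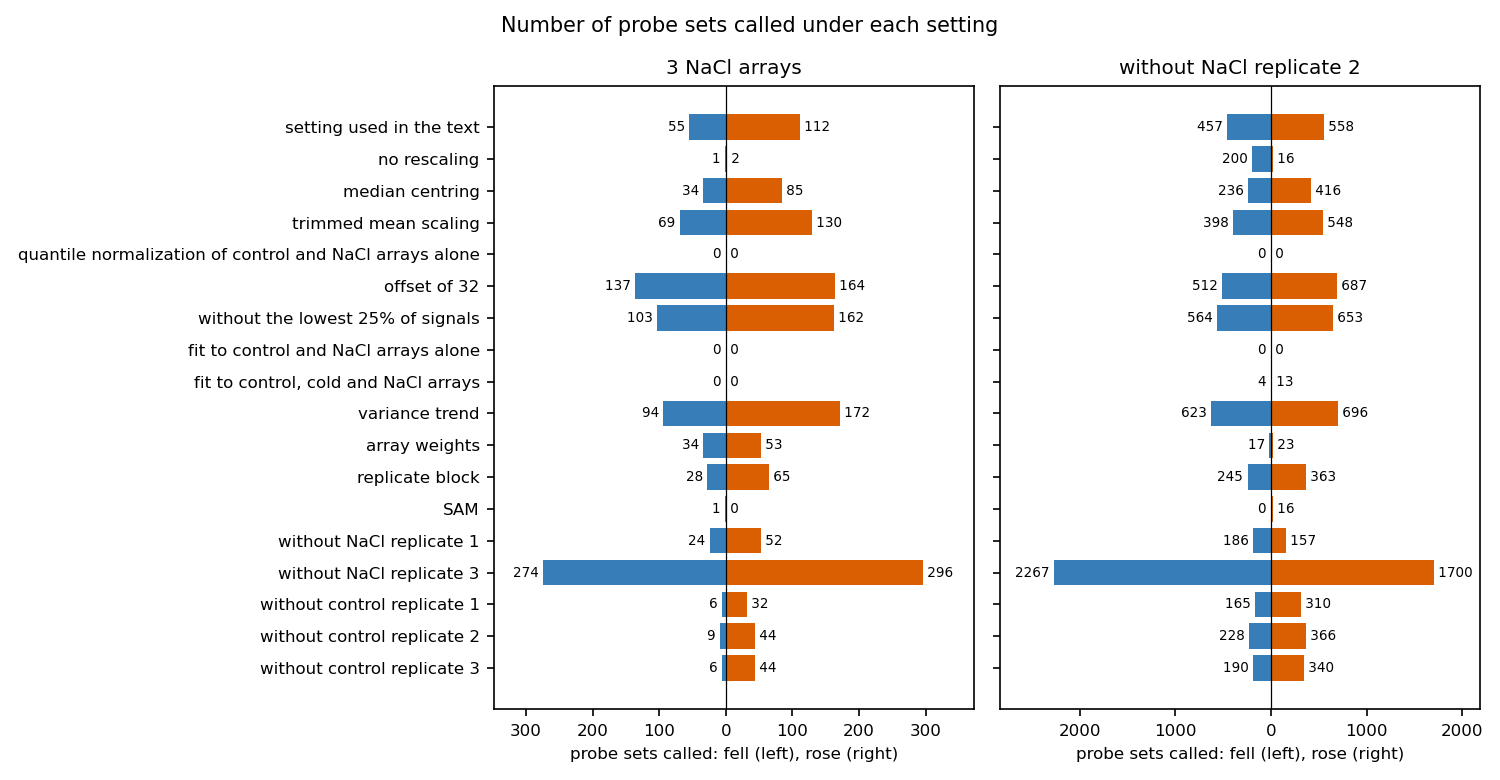
Number of probe sets called as lower (bars to the left, blue) or higher (bars to the right, orange) under NaCl than in control, with the 3 NaCl arrays (left panel) and without NaCl replicate 2 (right panel, on another axis), for the setting used in the text and each alternative. Fits to the control and NaCl arrays alone called 0 probe sets, and those used in the text called 112 and 55 on the left and 558 and 457 on the right.

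Thiamine synthesis held some of the largest named rises. Thiamine (vitamin B1) is the cofactor of enzymes such as pyruvate dehydrogenase and transketolase, and its thiazole ring is made in plants by the thiazole biosynthetic enzyme. Of 4 probe sets named for thiamine synthesis, 3 rose with the 3 NaCl arrays and 4 without replicate 2, with median log2 changes of 4.06 and 4.59 against -0.03 and -0.02 over all probe sets. Over all probe sets, 0.466% and 2.32% rose in these fits. Transcripts of these names stand in a table of the study that lists those up-regulated under all its stresses on these same arrays, so the count and the median describe transcripts chosen for this pattern and are no independent evidence. A probe set for thiamine biosynthesis (Ghi.10424.1.S1_s_at) read 5.48, 3.79 and 5.81 in the controls and 10.75, 8.77 and 9.16 in NaCl replicates 1, 2 and 3. Every NaCl array lay above every control array, and the change was 4.53 ± 0.536 (adjusted p 0.00512), a 23.2-fold rise, or 4.93 ± 0.567 (adjusted p 0.0011) without replicate 2. The thiazole biosynthetic enzyme (Gra.70.1.S1_s_at) had nearly the same values, 5.41, 3.42 and 5.93 in the controls and 10.53, 8.65 and 9.13 under NaCl. Its change was 4.51 ± 0.59 (adjusted p 0.00626) and, without replicate 2, 4.91 ± 0.636 (adjusted p 0.00243). Both probe sets carry the suffix of sets that match several transcripts, so they may report overlapping RNAs. A further thiamine biosynthesis protein (Gra.2938.2.A1_at) rose from 4.61, 4.36 and 5.77 to 9.64, 7.19 and 8.73, a change of 3.61 ± 0.567 (adjusted p 0.0171), or 4.27 ± 0.499 (adjusted p 0.00115) without replicate 2. The last member (Gra.1108.2.S1_s_at) read 4.48, 4.13 and 4.73 in the controls and 9.84, 6.19 and 7.47 under NaCl, again without overlap, with 3.38 ± 0.719 (adjusted p 0.0512) and 4.2 ± 0.649 (adjusted p 0.00623) in the respective fits. The calls of Ghi.10424.1.S1_s_at and Gra.70.1.S1_s_at were kept when any 1 array was left out, with changes of 3.92 to 4.93 and 3.77 to 5.02, while that of Gra.2938.2.A1_at with 3 arrays was lost without control replicate 1 or 2 (3.05 to 4.27 over the arrays left out). The other stresses held like levels of Ghi.10424.1.S1_s_at, the cold arrays reading 8.87 to 9.1, the mannitol arrays 8.93 to 9.5, the ABA arrays 9.51 to 10.37 and the pH arrays 10.51 to 10.93.

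The study designed qRT-PCR primers for 9 transcripts, chosen on these arrays, and the 3 that were called in both fits are shown with them so that the probe sets can be tied to a sequence. All letters are given in lower case, 5′ to 3′, and no PCR value is used here.
Thiamine biosynthesis protein (Ghi.10424.1.S1_s_at), forward primer: cagcctgagtttgttcta
Thiamine biosynthesis protein, reverse primer: gttcacattcaatccatcaa
Alcohol dehydrogenase 1 (Ghi.8046.1.S1_at), forward primer: tactcgtcggtgttccaa
Alcohol dehydrogenase 1, reverse primer: tgtagttgccaaagaaggtt
HSP20 family protein (Ghi.9308.1.S1_at), forward primer: tttgctaacaccagaatc
HSP20 family protein, reverse primer: catcttcaatctccactt

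Transcripts of starch breakdown formed the next group. Glucan water dikinases phosphorylate the surface of the starch granule, and starch phosphorylases then release glucose 1-phosphate from the chains. Of 12 probe sets, 2 rose and 0 fell with the 3 NaCl arrays, and 6 rose and 0 fell without replicate 2. Over all probe sets, 0.466% and 2.32% rose in these fits. The median log2 changes of the 12 were 1.47 and 1.14. Phosphorylases, glucan water dikinase 1 and SEX4 stand in the same table of the study, so this count is no independent evidence either, and nor are the rises of the tetratricopeptide repeat protein, the DnaJ chaperone, SCPL20, alcohol dehydrogenase 1 and nitrate transporter 1.5 below. Starch phosphorylase (Gra.1008.2.A1_s_at) read 4.73, 5.16 and 4.8 in the controls and 6.2, 6.73 and 6.34 in NaCl replicates 1, 2 and 3, without overlap. It rose by 1.52 ± 0.216 (adjusted p 0.0106) with the 3 arrays and by 1.37 ± 0.214 (adjusted p 0.00636) without replicate 2, and both calls held whichever array was left out (1.37 to 1.66 and 1.29 to 1.5). With no rescaling of the arrays, the difference without replicate 2 was -0.03 for this probe set and -0.42 for the dikinase PWD below, against a median of -1.31 over all probe sets. The phosphorylase ATPHS2 (Ghi.5148.1.S1_x_at) rose from 2.96, 4.4 and 4.23 to 6.62, 6.75 and 6.54, a change of 2.78 ± 0.417 (adjusted p 0.0138), or 2.72 ± 0.478 (adjusted p 0.0109) without replicate 2, where the call was lost when NaCl replicate 1 was dropped as well (2.27 to 2.99). All 3 NaCl arrays were alike in this transcript. The glucan water dikinase GWD1 (Ghi.1441.1.S1_s_at) read 7.28, 6.19 and 7.19 in the controls and 8.3, 9.48 and 8.04 under NaCl, a difference of 1.72 ± 0.37 (adjusted p 0.0531) and, without replicate 2, a rise of 1.28 ± 0.318 (adjusted p 0.0418). The phosphoglucan water dikinase PWD (Ghi.4248.1.S1_s_at) differed by 1.48 ± 0.312 (adjusted p 0.0504) and, without replicate 2, rose by 1.03 ± 0.207 (adjusted p 0.0195), the latter call being lost without NaCl replicate 1, NaCl replicate 3 or control replicate 3 (0.92 to 1.13). A second probe set of PWD (Ghi.4248.1.A1_s_at) and a second of GWD1 (Gra.1742.1.A1_s_at) were called in neither fit. In alpha-glucan phosphorylase isozyme H (Ghi.10692.1.S1_s_at), named after its values were seen, as was Ghi.1441.1.S1_s_at, NaCl replicate 2 read 12.11, within cold (11.34 to 12.16) and near mannitol (12.2 to 12.71), while NaCl replicates 1 and 3 read 7.45 and 6.73 and the controls 5.29, 4.21 and 5.78. The difference for isozyme H was 3.67 ± 1.01 (adjusted p 0.116) with the 3 arrays and 1.99 ± 0.478 (adjusted p 0.0375) without replicate 2. A second phosphorylase (Ghi.9069.1.S1_s_at) went the other way in replicate 2, at 7.25 against 9.55 and 9.22 in NaCl replicates 1 and 3 and 7.86, 7.84 and 7.76 in the controls, and was called only without it, at 1.57 ± 0.248 (adjusted p 0.00685). That call was lost when NaCl replicate 1 was dropped as well (1.4 to 1.73). Phosphoglucomutase (Gra.2773.1.S1_s_at), which converts glucose 1-phosphate to glucose 6-phosphate, rose from 5.11, 4.39 and 5.75 to 7.85, 6.35 and 6.91, by 1.95 ± 0.4 (adjusted p 0.0447) and 2.3 ± 0.402 (adjusted p 0.0106). With the 3 NaCl arrays this call was lost without NaCl replicate 1 or any control array (1.55 to 2.3), and without replicate 2 it was lost when NaCl replicate 1 was dropped (1.83 to 2.76).

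Other named transcripts rose in all 3 NaCl arrays. A tetratricopeptide repeat protein (Gra.2763.1.S1_s_at), of a family that mediates contacts between proteins, read 5.11, 4.78 and 4.42 in the controls and 7.88, 7.11 and 7.9 under NaCl. The rise was 2.86 ± 0.296 (adjusted p 0.0015), or 7.25-fold, and 3.12 ± 0.29 (adjusted p 0.000328) without replicate 2. A universal stress protein (Gra.222.1.A1_s_at), of a family named for its induction by many stresses in bacteria, read 6.56, 6.43 and 6.72 in the controls and 10.28, 9.0 and 8.86 under NaCl, a rise of 2.81 ± 0.368 (adjusted p 0.00626) and of 3.01 ± 0.402 (adjusted p 0.00299) without replicate 2. The calls of these probe sets were kept whichever array was left out, with 2.68 to 3.12 and 2.36 to 3.08. The serine carboxypeptidase SCPL20 (Ghi.9910.1.S1_s_at) rose from 4.43, 5.1 and 5.23 to 8.11, 6.35 and 7.79, by 2.49 ± 0.366 (adjusted p 0.0138) and 3.03 ± 0.239 (adjusted p 0.000197), and only the first of these calls was lost, without control replicate 1 (2.14 to 3.03). Alcohol dehydrogenase 1 (Ghi.8046.1.S1_at), the enzyme that reduces acetaldehyde to ethanol in fermentation, read 5.1, 5.13 and 4.92 in the controls and 7.69, 6.5 and 6.94 under NaCl. Its rise was 1.99 ± 0.309 (adjusted p 0.0154), lost without control replicate 1 or 3 (1.67 to 2.27), and 2.27 ± 0.303 (adjusted p 0.00298) without NaCl replicate 2, kept when any further array was left out (1.89 to 2.64). A chaperone with a DnaJ domain (Ghi.7728.1.S1_at), the domain by which co-chaperones bind HSP70, rose from 4.38, 4.11 and 4.47 to 6.9, 5.32 and 6.55, by 1.93 ± 0.339 (adjusted p 0.0273) and 2.4 ± 0.241 (adjusted p 0.000531). With 3 NaCl arrays its call was lost without NaCl replicate 1 or any control array (1.61 to 2.4), and without replicate 2 it held (2.23 to 2.58). In this transcript replicate 2 lay lowest of the NaCl arrays and in SCPL20 and alcohol dehydrogenase 1 as well, but above every control.

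Few named transcripts fell in both fits. Of 9 heat shock and chaperone probe sets, 1 rose and 1 fell in each. Over all probe sets, 0.466% rose and 0.229% fell with the 3 NaCl arrays, and 2.32% and 1.9% without replicate 2. The study lists an HSP20 family protein, nitrate reductase and nitrate transporter 1.4 as down-regulated under all its stresses on these same arrays. Their falls are thus no independent evidence. An HSP20 family protein (Ghi.9308.1.S1_at), of the small heat shock proteins that hold unfolded proteins in solution, read 10.21, 7.83 and 9.79 in the controls and 5.75, 3.44 and 5.74 under NaCl. Its change was -4.3 ± 0.722 (adjusted p 0.0238), a 19.6-fold fall, and -3.53 ± 0.68 (adjusted p 0.0163) without replicate 2. The lower control value, in replicate 2, still lay above every NaCl array, but the first call was lost without control replicate 1 or 3 (-5.02 to -3.53), and the second also without NaCl replicate 1 (-4.25 to -3.06). Nitrate reductase (Gra.1111.1.A1_at), which reduces nitrate to nitrite in the first step of nitrogen assimilation, read 6.56, 6.45 and 6.05 in the controls and 3.71, 3.98 and 5.3 under NaCl. Its change was -2.02 ± 0.377 (adjusted p 0.033), or -1.85 ± 0.417 (adjusted p 0.0302) without replicate 2, and both calls were lost without NaCl replicate 1 or any control array (-2.51 to -1.72 and -2.64 to -1.06). A protein kinase (Ghi.3381.1.S1_x_at) fell from 7.94, 7.74 and 8.0 to 6.59, 5.6 and 6.54, with changes of -1.65 ± 0.303 (adjusted p 0.033) and -1.33 ± 0.274 (adjusted p 0.0226); the first call was lost when any 1 control array was left out (-1.82 to -1.33), and the second without NaCl replicate 1 or control replicate 1 or 3 (-1.4 to -1.27). Of the 4 probe sets for nitrate uptake and reduction, 1 fell with the 3 arrays, and 1 rose and 1 fell without replicate 2. All 4 bear names that the study lists as changed under all its stresses, so these counts are no independent evidence either. Nitrate transporter 1.5 (Ghi.3135.1.S1_at), which in Arabidopsis loads nitrate into the xylem, read 4.35, 5.08 and 3.8 in the controls and 6.29, 6.2 and 7.7 under NaCl, at 2.32 ± 0.596 (adjusted p 0.0941) with the 3 arrays and 2.59 ± 0.67 (adjusted p 0.0489) without replicate 2. That call was lost when any further array was left out (1.88 to 3.29). Nitrate transporter 1.4 (Gra.2247.1.S1_at) differed by -1.92 ± 0.706 (adjusted p 0.225) and -2.57 ± 0.707 (adjusted p 0.0597), short of the threshold, with NaCl replicate 2 at 8.74 near the controls (9.14, 9.53 and 9.42) and replicates 1 and 3 at 6.86 and 6.72.

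**Figure D3:**
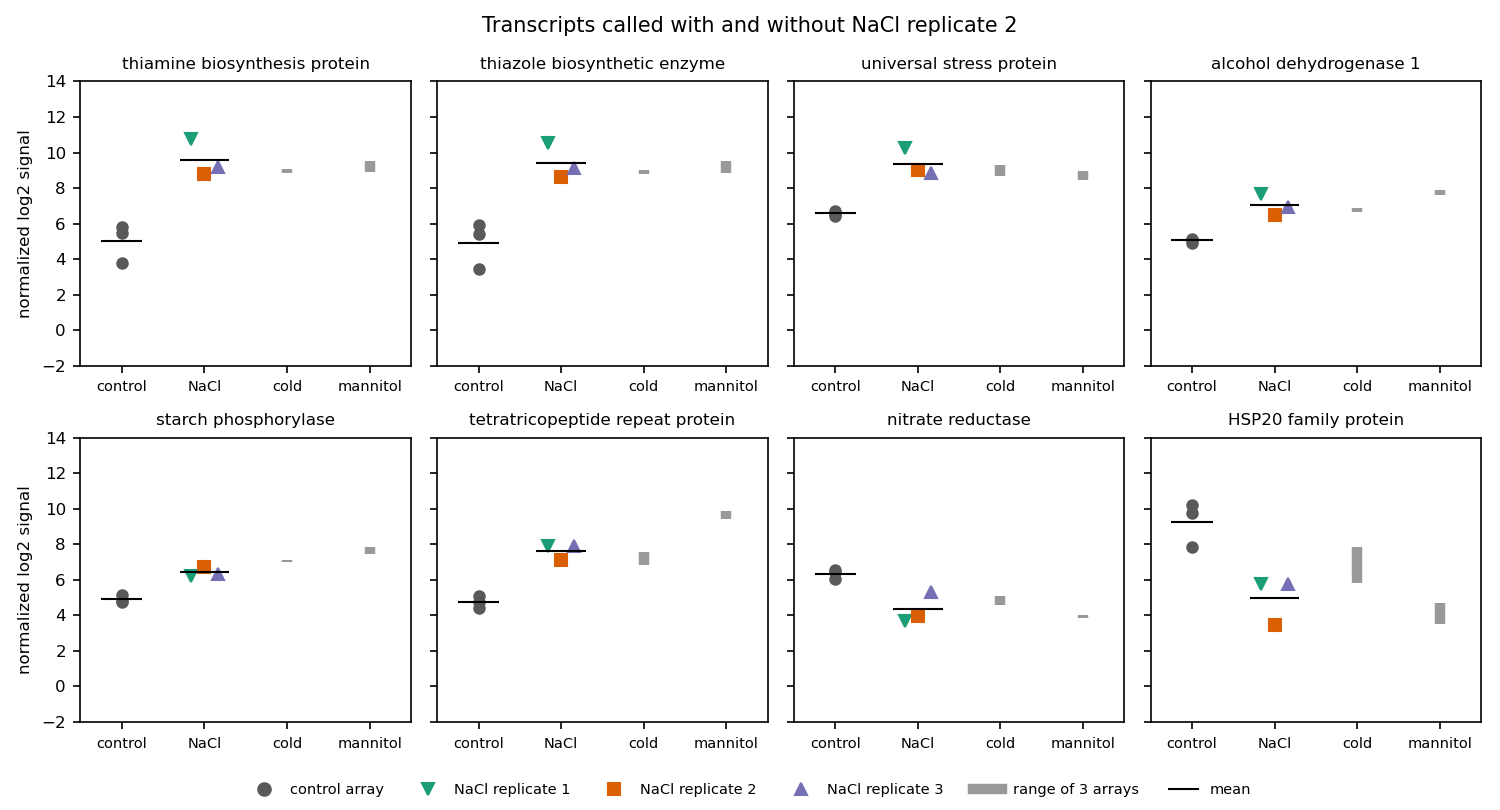
Normalized log2 signal (vertical axis) of 8 transcripts called in both fits, in each control array (circles) and NaCl array (coloured symbols, 1 per replicate), with horizontal lines at the means and grey bars over the range of the 3 cold and 3 mannitol arrays. In every panel the 3 NaCl arrays lie on one side of the 3 controls, above them in the first 6 and below them for nitrate reductase and HSP20.

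Transcripts best known from salt tolerance gave no calls. None of 6 probe sets for sodium, potassium and proton transport and none of 28 for calcium and CBL-CIPK signalling was called in either fit, with median log2 changes between 0 and 0.06. Of all probe sets only 0.695% were called with the 3 arrays and 4.22% without replicate 2, so that 0 calls in lists of this size lie near the share over all probe sets. In limma the smallest adjusted p among the transport probe sets was 0.254 with the 3 NaCl arrays and 0.125 without replicate 2, and among the calcium probe sets 0.178 and 0.0652. The vacuolar antiporter NHX1 (Ghi.8122.1.S1_s_at) read 9.47, 9.54 and 9.33 in the controls and 9.26, 9.24 and 9.72 under NaCl. The difference was -0.04 ± 0.205 (adjusted p 0.945), with a 95% interval of -0.48 to 0.4, and without replicate 2 it was 0.04 ± 0.215 (-0.43 to 0.51), intervals that lie within a fold change of 2. SOS2 (GhiAffx.7102.1.S1_at) read 8.4, 7.98 and 7.93 in the controls and 7.28, 7.15 and 7.8 under NaCl, all NaCl arrays below the controls, with a difference of -0.69 ± 0.244 (adjusted p 0.205) and an interval of -1.22 to -0.17. Without replicate 2 the difference for SOS2 was -0.56 ± 0.257 (adjusted p 0.213). The calcium sensor CBL2 (Ghi.8150.1.S1_at) read 9.54, 9.56 and 9.62 in the controls and 9.51, 9.6 and 9.36 under NaCl, at -0.09 ± 0.176 (adjusted p 0.853) with an interval of -0.47 to 0.29. CBL3 (Ghi.8132.1.S1_at) read 7.16, 7.25 and 6.82 in the controls, 5.23 in NaCl replicate 1 and 6.7 and 6.84 in NaCl replicates 2 and 3, and without replicate 2 its interval of -1.84 to -0.25 takes in a fold change of 2. The kinase CIPK6 (Ghi.10388.2.S1_at) read 10.45, 9.95 and 10.34 in the controls and 10.79, 11.54 and 10.11 under NaCl, with its highest NaCl value in replicate 2. The sodium- and lithium-tolerance protein SLT1 (Ghi.1245.2.S1_s_at) read 8.57, 8.62 and 8.81 in the controls and 8.7, 10.31 and 8.57 under NaCl, where replicate 2 alone lay above the controls, as did cold (9.62 to 9.96), mannitol (10.89 to 10.98), ABA (9.98 to 11.36) and pH (10.73 to 10.87); without it the difference was -0.04 ± 0.308 (adjusted p 0.958). Among the potassium channels, AKT1 (Ghi.3605.1.A1_at), an inward channel for potassium uptake in Arabidopsis roots, read 3.67, 4.32 and 4.52 in the controls and 4.46, 3.92 and 4.6 under NaCl. KAT2 (Gra.1433.1.A1_at), an inward channel of guard cells, read 3.71, 4.54 and 3.71 in the controls and 2.89, 3.25 and 2.58 under NaCl, lower in every NaCl array, at -1.08 ± 0.422 (adjusted p 0.254), and the channel KCO6 (Ghi.7544.2.S1_s_at) differed by -0.72 ± 0.371 (adjusted p 0.387). Without replicate 2, KAT2 and KCO6 differed by -1.25 ± 0.472 (adjusted p 0.144) and -1.04 ± 0.37 (adjusted p 0.125).

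Osmotic and ABA-related transcripts gave 1 call. The aquaporin NIP6.1 (GhiAffx.22396.1.S1_at) read 7.39, 6.93 and 7.25 in the controls and 7.14, 7.47 and 7.06 under NaCl, a difference of 0.03 ± 0.318 (adjusted p 0.972). The LEA protein Lea14-A (Ghi.6722.1.S1_s_at) read 10.33, 10.05 and 10.77 in the controls and 10.1, 11.32 and 10.62 under NaCl, at 0.3 ± 0.461 (adjusted p 0.803) with an interval of -0.7 to 1.29. Without replicate 2, NIP6.1 and Lea14-A differed by -0.09 ± 0.352 (adjusted p 0.906) and -0.02 ± 0.49 (adjusted p 0.983). Of 13 probe sets for ABA signalling and PP2C, 0 were called with the 3 NaCl arrays and 1 rose without replicate 2, near the 2.32% of all probe sets that rose in that fit, with median log2 changes of 0.31 and 0.16. The member that rose was a type 2C phosphatase (Ghi.10686.1.A1_at), at 6.76, 6.42 and 6.51 in the controls and 7.55, 6.98 and 7.72 under NaCl, with 1.07 ± 0.257 (adjusted p 0.0376) without replicate 2 and 0.85 ± 0.263 (adjusted p 0.155) with it. Its call was lost when any further array was left out (0.99 to 1.17), and with no rescaling of the arrays the difference was -0.39 against a median of -1.31. Protein phosphatase 2C 77 (Ghi.3038.1.A1_s_at) read 3.52, 3.22 and 3.91 in the controls and 6.59, 5.99 and 4.64 under NaCl, higher in every NaCl array, but its differences of 2.19 ± 0.512 (adjusted p 0.0712) and 2.06 ± 0.586 (adjusted p 0.0651) did not pass the threshold. Protein phosphatase 2C 12 (Ghi.3596.3.S1_at) likewise read 4.88, 5.67 and 4.78 in the controls and 6.53, 7.35 and 5.89 under NaCl, at 1.48 ± 0.367 (adjusted p 0.0862) and, without replicate 2, 1.1 ± 0.341 (adjusted p 0.0841). The study lists phosphatases 2C 77 and 2C 12 as up-regulated under all its stresses on these same arrays. Their higher values are thus no independent evidence.

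Several transcription factors were called only without NaCl replicate 2. Of 47 probe sets for bZIP and zinc finger factors, 1 rose and 0 fell with the 3 NaCl arrays, and 1 rose and 7 fell without replicate 2, with medians of 0.15 and -0.40. Over all probe sets, 2.32% rose and 1.9% fell in that fit. The study's own list of 18 factors under NaCl was chosen on these arrays and is thus no independent evidence. It held 0 calls with the 3 arrays and 2 rises and 7 falls without replicate 2. Most of the falls among the bZIP and zinc finger factors stand in it too, so their number is no independent evidence either. A bZIP53 transcript (Ghi.10259.1.S1_s_at), of a family whose Arabidopsis member controls genes of amino acid metabolism and seed maturation, read 9.84, 9.52 and 9.52 in the controls and 6.59, 9.73 and 7.51 under NaCl. NaCl replicate 2 lay among the controls, and the difference was -1.69 ± 0.558 (adjusted p 0.183) with it and -2.58 ± 0.298 (adjusted p 0.0011) without it, the latter a call kept whichever further array was left out (-3.04 to -2.12). A second bZIP53 probe set (Ghi.9740.1.S1_s_at) read 7.04, 6.67 and 6.99 in the controls and 2.55, 9.12 and 5.56 under NaCl, with replicate 2 above the controls, and changed by -2.84 ± 0.654 (adjusted p 0.0328) without it. bZIP60 (Ghi.8170.1.S1_s_at), which in Arabidopsis acts in the response to unfolded proteins in the endoplasmic reticulum, read 7.01, 6.53 and 7.46 in the controls and 3.9, 7.26 and 5.93 under NaCl, a change of -2.08 ± 0.517 (adjusted p 0.0419) without replicate 2. Zinc finger CCCH domain-containing protein 20 (Ghi.8231.1.S1_s_at) fell from 9.97, 9.9 and 9.92 to 7.35 and 8.29 in NaCl replicates 1 and 3 and read 9.23 in replicate 2, at -2.11 ± 0.403 (adjusted p 0.0157) without it. The second bZIP53 and the bZIP60 call were lost without NaCl replicate 1 or any control array (-4.35 to -1.34 and -3.1 to -1.07), and that of Ghi.8231.1.S1_s_at without NaCl replicate 1 (-2.58 to -1.63).

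Probe sets of 1 name did not always move together. STZ/ZAT10, a zinc finger repressor induced by salt and cold in Arabidopsis, gives its name to 6 probe sets, of which 4 were called in at least 1 fit. Of all probe sets, 0.695% were called with the 3 NaCl arrays and 4.22% without replicate 2. Of the 4, Ghi.10485.1.S1_s_at read 10.78, 10.86 and 10.68 in the controls, 8.97 and 9.35 in NaCl replicates 1 and 3 and 12.46 in replicate 2, close to cold (11.7 to 12.3). Its difference was -0.51 ± 0.679 (adjusted p 0.761) with the 3 arrays and -1.61 ± 0.35 (adjusted p 0.0261) without replicate 2. Without replicate 2, Ghi.3286.1.S1_at (-1.57 ± 0.379, adjusted p 0.0383) and Ghi.1074.1.S1_s_at (-2.62 ± 0.633, adjusted p 0.0382) fell too. The fourth (Ghi.6901.1.A1_s_at) rose instead, from 5.74, 5.0 and 5.33 to 6.64, 7.52 and 7.39, at 1.83 ± 0.379 (adjusted p 0.0461) and 1.66 ± 0.42 (adjusted p 0.0451), with all NaCl arrays above the controls. The remaining members, Ghi.4983.1.A1_at and Ghi.807.1.S1_s_at, were not called, at -1.12 ± 0.645 (adjusted p 0.32) and -0.5 ± 0.399 (adjusted p 0.486) without replicate 2, and read 10.94 and 11.54 in replicate 2 against 7.71, 7.54 and 7.89 and 7.71, 7.84 and 7.74 in the controls. Ghi.1074.1.S1_s_at, Ghi.6901.1.A1_s_at, Ghi.4983.1.A1_at and Ghi.807.1.S1_s_at were singled out after their values were seen. The falls of Ghi.10485.1.S1_s_at and Ghi.3286.1.S1_at were lost when NaCl replicate 1 or any control array was also left out (-1.81 to -1.42 and -1.75 to -1.38), and that of Ghi.3286.1.S1_at without NaCl replicate 3 too.

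Among 36 ethylene-related probe sets, 1 rose and 0 fell with the 3 NaCl arrays, and 1 rose and 2 fell without replicate 2, near the 2.32% and 1.9% of all probe sets that did so. The ethylene-responsive factor CRF3 (Ghi.5441.1.A1_s_at), of a subfamily tied to cytokinin in Arabidopsis, read 8.13, 7.28 and 8.01 in the controls but -0.57, 8.38 and 5.59 under NaCl. The NaCl arrays thus differed among themselves by more than from the controls, and the change without replicate 2, -5.3 ± 1.26 (adjusted p 0.0363), was lost without NaCl replicate 1 or any control array (-8.38 to -2.22). The factor RAP2-4 (Ghi.3913.1.A1_x_at) read 4.25, 4.25 and 3.94 in the controls and 2.66, 6.86 and -0.36 under NaCl, with -3.0 ± 0.624 (adjusted p 0.0233) without replicate 2, lost without control replicate 1 or 2 (-4.51 to -1.49). The member that rose was ACC oxidase (Gra.2961.2.A1_x_at), the last enzyme of ethylene synthesis, at 2.9, 5.44 and 1.32 under NaCl. Its control values of -1.18, -1.23 and -2.32 lay at the foot of the scale, so no fold is given; the difference was called in both fits, and in the first it was lost when any 1 control array was left out. Of 62 probe sets for WRKY, NAC, MYB and bHLH factors, 0 were called with the 3 arrays, and 3 rose and 0 fell without replicate 2, against 2.32% and 1.9% of all probe sets. bHLH137 (Ghi.1312.1.S1_s_at) read 5.02, 5.2 and 5.14 in the controls and 6.48, 5.69 and 8.06 under NaCl, a rise of 2.15 ± 0.361 (adjusted p 0.00913) without replicate 2 that held when any further array was left out (1.36 to 2.94). An HMG box protein (Ghi.4301.1.S1_s_at), of a group that bends DNA, read 4.24, 3.63 and 3.58 in the controls and 7.7, 4.36 and 6.28 under NaCl, at 3.17 ± 0.515 (adjusted p 0.00762) without replicate 2, lost when NaCl replicate 1 was dropped (2.46 to 3.88). NAC47 (Ghi.6538.1.S1_at), on both of the study's lists, read 7.09, 6.11 and 7.03 in the controls and 7.73, 10.28 and 8.01 under NaCl, with its highest NaCl value in replicate 2 as in cold (9.9 to 10.54), and was called in neither fit (1.93 ± 0.539, adjusted p 0.12, and 1.12 ± 0.348, adjusted p 0.0846).

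In some cell wall transcripts NaCl replicate 2 also lay apart. Of the 12 probe sets of the cell wall list, 0 were called with the 3 NaCl arrays, and 1 rose and 1 fell without replicate 2, with medians of -0.87 and -0.90, near the 2.32% and 1.9% of all probe sets. The pectinesterase and the expansin EXPA1 below are these calls; XTH1, the proline-rich protein and the peroxidase pod3 are named as large changes from outside the list. In other members of the list replicate 2 did not stand apart, as in the glucan endo-1,3-beta-glucosidase Ghi.10826.1.S1_at, at 12.01, 11.92 and 12.15 in the controls and 10.31, 10.65 and 10.82 under NaCl, and in the expansin GhiAffx.26845.1.S1_at, at 7.43, 7.27 and 6.42 and 5.34, 5.35 and 6.15. The study lists a glucosidase of that name, pectinesterase 3, cellulose synthase and beta-xylosidase 1 as down-regulated under all its stresses on these same arrays. The lower values of these members, and thus the list medians, are no independent evidence. The xyloglucan endotransglucosylase/hydrolase XTH1 (Ghi.6236.2.S1_s_at), which cuts and rejoins the xyloglucan that tethers cellulose, read 11.68, 12.12 and 11.47 in the controls and 10.02, 11.66 and 9.66 under NaCl. Replicate 2 lay within the controls and replicates 1 and 3 below them, and the difference was -1.31 ± 0.395 (adjusted p 0.147) with the 3 arrays and -1.91 ± 0.23 (adjusted p 0.00136) without replicate 2 (-2.09 to -1.73 with any further array left out, and with the call kept). A proline-rich protein (Ghi.680.1.S1_s_at), of a class of structural wall proteins, read 6.06, 5.87 and 5.37 in the controls, 10.57 and 10.23 in NaCl replicates 1 and 3 and 6.78 in replicate 2, which lay near cold (6.93 to 7.56) and mannitol (6.68 to 7.35). Without replicate 2 it rose 24.8-fold, by 4.63 ± 0.554 (adjusted p 0.00136), a call kept when any further array was left out (4.43 to 4.8), and with it the difference was 3.43 ± 0.818 (adjusted p 0.0741). A pectinesterase (Ghi.3458.1.A1_at), which removes methyl groups from pectin, read 7.73, 8.19 and 7.49 in the controls and 9.69, 7.07 and 9.91 under NaCl, below the controls in replicate 2 and above them in the others, at 2.0 ± 0.318 (adjusted p 0.00703) without replicate 2 (1.84 to 2.19 with any further array left out). Expansin EXPA1 (Ghi.2039.1.S1_x_at), of the proteins that loosen the wall in growing cells, read 3.85, 3.01 and 2.56 in the controls and -0.34, 3.76 and -0.77 under NaCl, at signals far below the median of the array, and was called without replicate 2 (-3.69 ± 0.622, adjusted p 0.00934). The class III peroxidase pod3 (Ghi.8106.1.S1_at) fell from 9.25, 10.08 and 9.95 to 6.39 and 7.82 in NaCl replicates 1 and 3, with 9.33 in replicate 2, at -2.65 ± 0.402 (adjusted p 0.00555) without it. That call was kept when any further array was left out (-3.37 to -1.94).

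**Figure D4:**
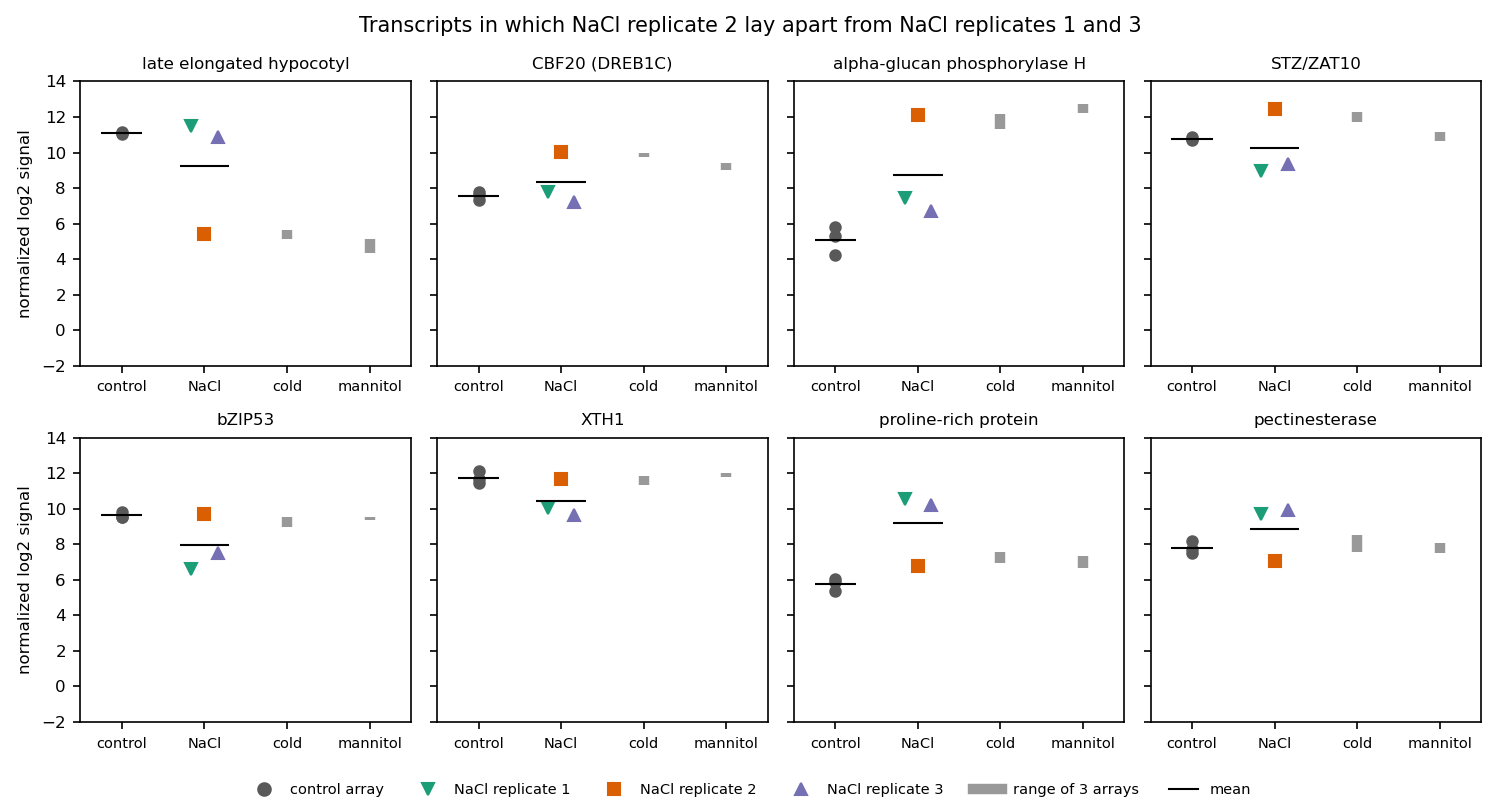
Normalized log2 signal (vertical axis) of 8 transcripts in which NaCl replicate 2 (square) lay apart from NaCl replicates 1 and 3 (triangles), with the control arrays as circles, means as lines and the ranges of the 3 cold and 3 mannitol arrays as grey bars. For late elongated hypocotyl, CBF20 and the phosphorylase, replicate 2 lies by the cold arrays and the other NaCl arrays by or nearer to the controls; for bZIP53 and XTH1 replicate 2 lies by the controls.

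Of 17 probe sets for tubulin and the cytoskeleton, 1 rose with the 3 NaCl arrays, and 1 rose and 2 fell without replicate 2, where 2.32% and 1.9% of all probe sets did so. Actin 11 (Ghi.5940.1.A1_at) rose from 4.37, 5.35 and 4.32 to 6.65, 6.52 and 5.75, by 1.62 ± 0.3 (adjusted p 0.033) and 1.52 ± 0.332 (adjusted p 0.027), calls lost without NaCl replicate 1 or control replicate 1 or 3 (1.44 to 1.96 and 1.06 to 1.97). Another probe set named ACT11 (Ghi.4376.2.S1_a_at) was called in neither fit. The tubulin BTub4 (Ghi.1175.2.S1_s_at) read 9.12, 10.01 and 8.97 in the controls and 7.86, 9.65 and 8.21 under NaCl, a change of -1.33 ± 0.302 (adjusted p 0.031) without replicate 2, lost without NaCl replicate 1 or control replicate 1 or 2 (-1.53 to -1.01). An elongation factor 1-alpha (Gra.78.3.S1_x_at), which brings aminoacyl-tRNA to the ribosome, read 7.41, 7.33 and 7.28 in the controls and 5.21, 7.51 and 6.24 under NaCl with a change of -1.62 ± 0.37 (adjusted p 0.0321) without replicate 2, lost without NaCl replicate 1 or any control array (-2.14 to -1.1). It was the 1 call among 15 ribosome and translation probe sets. Of 11 for gibberellin and auxin, 0 were called with the 3 arrays and 1 fell without replicate 2. Of all probe sets, 0.695% were called with the 3 NaCl arrays and 4.22% without replicate 2. In lists of this size, 0 or 1 call lies near these shares. These lists hold only the transcripts whose names matched their terms, and other enzymes of the same processes were called without replicate 2. No probe set was called in either fit among those listed for osmolytes and LEA proteins (2 probe sets), reactive oxygen detoxification (3), chloroplast electron transport (3), phenylpropanoids (3), and membrane lipids (7), a list in which no lipid transfer protein was found. Here too, 0 calls lie near the shares over all probe sets. The smallest adjusted p in these lists was 0.0712 with the 3 arrays and 0.0631 without replicate 2. Among the chloroplast set, chlororespiratory reduction 3 (Ghi.1545.1.S1_at), a subunit of the chloroplast NDH complex, read 5.17, 2.97 and 5.68 in the controls and 6.79, 7.39 and 6.57 under NaCl, higher in every NaCl array, with 2.31 ± 0.572 (adjusted p 0.086) and 2.08 ± 0.645 (adjusted p 0.0849). The study lists it as up-regulated under all its stresses on these same arrays, so its higher values are no independent evidence. An unnamed probe set of the same cluster number (Ghi.1545.1.A1_s_at) was called in both fits, with 4.58, 2.76 and 4.67 in the controls, 6.67, 6.29 and 5.69 under NaCl and changes of 2.21 ± 0.427 (adjusted p 0.039) and 2.17 ± 0.491 (adjusted p 0.0307). Of the study's 9 qRT-PCR transcripts, 2 rose and 1 fell in each fit, as given above. The salicylate-induced glucosyltransferase (Ghi.9820.2.S1_s_at), the scarecrow-type factor (Gra.1312.2.S1_s_at) and a further pectinesterase (Gra.1483.2.S1_at) had log2 differences of -2.5 ± 0.868 (adjusted p 0.202), -1.6 ± 0.533 (adjusted p 0.184) and -1.07 ± 0.55 (adjusted p 0.385) with the 3 NaCl arrays. Without replicate 2 these were -3.27 ± 0.884 (adjusted p 0.0566), -1.76 ± 0.608 (adjusted p 0.115) and -1.12 ± 0.636 (adjusted p 0.316).

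**Figure D5:**
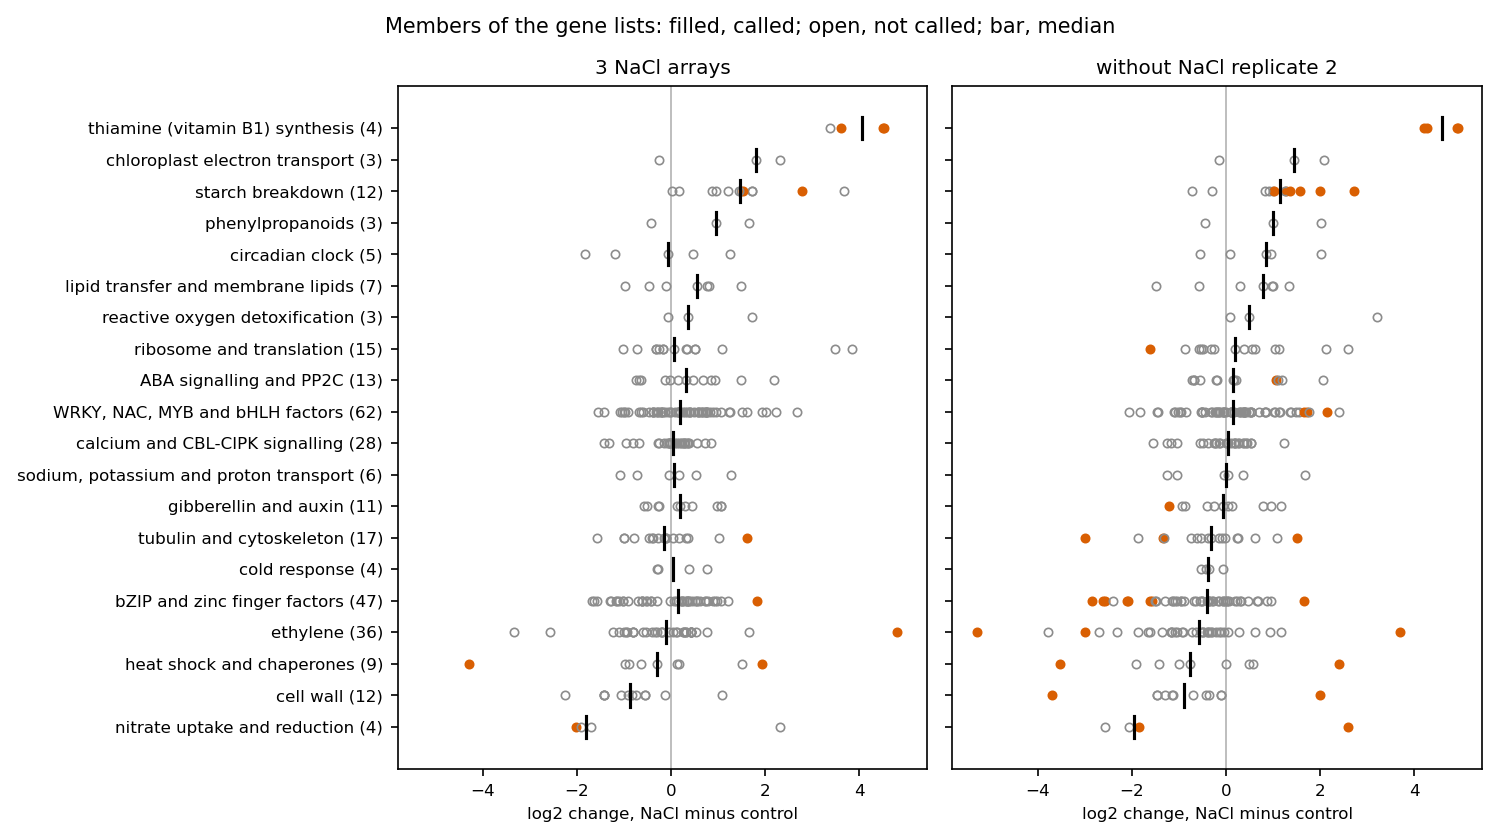
Log2 change (horizontal axis, NaCl minus control) of each member of the gene lists with 3 or more probe sets, their number in brackets, with the 3 NaCl arrays (left panel) and without NaCl replicate 2 (right panel). Filled points were called and open points were not, and bars mark list medians, which were 4.06 and 4.59 for thiamine synthesis and 0.06 and 0 for sodium, potassium and proton transport.

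Mannitol, a sugar alcohol that carries no charge, gives an osmotic stress without salt. NaCl was set beside it for the 24 named transcripts that ranked among the 10 largest rises or falls of either fit. Both were given at 200 mM, which matches their molar concentration and not a measured osmotic stress. The mannitol arrays had been deposited on another scale (trimmed mean of 498 against 116 to 119 in the controls), so that scale and condition cannot be told apart, and the comparison shares the NaCl arrays with the one that chose the transcripts. Over all probe sets, 10.3% were higher and 11% lower in NaCl than in mannitol with the 3 NaCl arrays, and 12.5% and 14% without replicate 2. Of the 24 transcripts, 3 were higher and 5 lower with the 3 NaCl arrays, and 4 higher and 8 lower without replicate 2. With no rescaling of the arrays 0 were higher and 22 lower. The deposited trimmed means of NaCl replicates 1, 2 and 3 were 18.1, 138 and 122, far below those of mannitol, so this count follows the scale. It cannot test the calls of a higher level under NaCl. The tetratricopeptide repeat protein was higher in mannitol (9.42 to 9.87) than in any NaCl array, while for the thiamine biosynthesis protein Ghi.10424.1.S1_s_at the difference was 0.29 ± 0.536 (adjusted p 0.728). Phosphoglucomutase was at 5.18 to 5.77 in mannitol, close to the controls, and alcohol dehydrogenase 1 at 7.59 to 7.88.

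Most of the called probe sets have no name in the sources used here: 19 of the 167 and 74 of the 1015 are named. Some of the unnamed ones were among the largest, and 3 are given as examples chosen after their values were seen. Ghi.3992.1.A1_at read 5.94, 4.39 and 3.49 in the controls, 12.13 and 10.56 in NaCl replicates 1 and 3 and 3.08 in replicate 2. Ghi.5773.1.S1_at showed the converse, with 10.32, 9.93 and 10.7 in the controls, 5.38 and 5.99 in NaCl replicates 1 and 3 and 10.33 in replicate 2. In Ghi.6639.4.A1_x_at all 3 NaCl arrays were alike, at 9.26, 9.5 and 8.74 against 6.13, 5.89 and 6.35 in the controls, a rise of 3.04 ± 0.466 (adjusted p 0.0152).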

How the data were processed

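RNA of whole cotton seedlings was hybridized to the Affymetrix Cotton Genome Array, 17 arrays in all. The deposited values are signal intensities on a linear scale, summarized per probe set with MAS5 per the labels and the submitters' processing notes. They had been scaled to a trimmed mean near 500 on the ABA, mannitol and pH arrays and not on the others. The labels give biotin as the label in one field and a pair of Cy dyes in the protocol, as the study's methods do, so the label was not settled. From these intensities, the 103 AFFX control probe sets were left out, and the 24029 remaining were log2 transformed and quantile normalized over the 17 arrays. limma 3.58.1 in R 4.3.3 was fitted with 1 coefficient per condition, with Benjamini-Hochberg adjustment over all probe sets. A call needed a fold of 2 and an adjusted p of 0.05. NaCl replicate 2 was left out of the second fit without repeating the normalization. SAM, the study's test, was an alternative. Tested on simulated data of 24029 probe sets with 3 NaCl arrays, limma found 80 of the 100 probe sets changed by 3 on the log2 scale and 41 of the 100 changed by 1.5, with 7 false calls. Without replicate 2 it found 71 and 30, again with 7 false calls. SAM found 42 and 6 with 3 NaCl arrays and 26 and 0 without replicate 2. The simulation gave every array the same spread within a probe set, whereas the NaCl arrays were less alike than the controls. Its counts are thus no measure of the recovery or the false calls in these data. Names were available for 960 probe sets, from the platform table matched to RefSeq or, for 636 of them, only from the study's tables, so that naming leans towards transcripts the study listed. Named transcripts were the 10 largest annotated rises and falls of each fit among those with a signal above the median, up to 4 members of each list by adjusted p, and the study's qRT-PCR and transcription factor lists. Probe sets ending in s_at or x_at can match several transcripts. Primer sequences were copied from the study's supplement. The number of arrays limits the precision. Members and lists were chosen with earlier results of these data known.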

Additional observations from a re-analysis of the deposited data

Results flagged for a closer look

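For 7 of the 24 transcripts set beside mannitol, NaCl and mannitol differed at least 2-fold, in limma at an adjusted p of at most 0.05 for the difference itself, both with the 3 NaCl arrays and without NaCl replicate 2. An elongation factor 1-alpha (Gra.78.3.S1_x_at) differed so only with the 3 NaCl arrays (1.51, adjusted p 0.0298, and 0.91, adjusted p 0.0795, without replicate 2). Such differences were common: over all probe sets, 10.3% were higher and 11% lower in NaCl than in mannitol with the 3 NaCl arrays. Without replicate 2 these shares were 12.5% and 14%. The scale on which the mannitol arrays were deposited and the condition cannot be told apart, and the values are NaCl minus mannitol on the log2 scale. Lower under NaCl were the tetratricopeptide repeat protein Gra.2763.1.S1_s_at (-2.04, adjusted p 0.000505, and -1.79 without NaCl replicate 2), the phosphorylase ATPHS2, Ghi.5148.1.S1_x_at (-1.72, adjusted p 0.00974, and -1.78), and the protein kinase Ghi.3381.1.S1_x_at (-2.94, adjusted p 5.43e-05, and -2.62). The peroxidase pod3, Ghi.8106.1.S1_at (-2.87, adjusted p 0.00232, and -3.61), and XTH1, Ghi.6236.2.S1_s_at (-1.45, adjusted p 0.017, and -2.06), were lower too. Higher under NaCl were SCPL20, Ghi.9910.1.S1_s_at (1.06, adjusted p 0.0491, and 1.59), and phosphoglucomutase, Gra.2773.1.S1_s_at (1.54, adjusted p 0.0138, and 1.88). With no rescaling of the arrays, 0 of the 24 were higher under NaCl and 22 lower, a count that follows the deposited scale and cannot test these calls. The tetratricopeptide repeat protein and ATPHS2 thus rose under NaCl against control and were higher still on the mannitol arrays.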

How the results depend on the processing

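The 3 NaCl arrays gave 167 called probe sets. This became 3 with no rescaling, in limma as in the next 3 settings. It was 0 when only the control and NaCl arrays were quantile normalized together and fitted (1349 at an unadjusted p of 0.05). A fit to control and NaCl arrays alone, without that normalization, also gave 0 (1391). The effect of that normalization can thus not be told apart from that of the smaller fit. A fit to control, cold and NaCl arrays gave 0 (1441). The count was 301 with an offset of 32, 265 without the lowest 25% of signals, 266 with a variance trend and 87 with array weights. It was 1 by SAM and 2026 at an unadjusted p, and 38 to 1015 over leaving out 1 array. Without NaCl replicate 2, the 1015 calls became 216 with no rescaling, 652 with median centring, 0 and 0 under the first pair of control and NaCl settings (2597 and 2602), 17 with cold added, 40 with array weights, 16 by SAM and 3412 at an unadjusted p, and 343 to 3967 over leaving out 1 more array. Trimmed mean scaling moved neither count by over 1.5 times.

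With the replicate number as a block (replicate block), the counts were 93 and 608. The numbers do not pair the arrays: deviations of same-numbered NaCl and control arrays correlated at 0.075, 0.035 and 0.039. Of the 24 transcripts set beside mannitol, 8 were called, 7 with the replicate block and 5 to 12 over leaving out 1 array. It was 22 with no rescaling, all lower under NaCl, a count that follows the scale on which the arrays were deposited. With no rescaling and without NaCl replicate 2, the sign turned for Ghi.10686.1.A1_at (-0.39), Ghi.4248.1.S1_s_at (-0.42) and Gra.1008.2.A1_s_at (-0.03), as the median of all probe sets shifted to -1.31. Of 58 calls of named transcripts over both fits, 24 were kept whichever array was left out. The causes were not tested.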

Other observations

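Further named enzymes, chosen after their values were seen, were called only without NaCl replicate 2. Among those of flavonoid synthesis, dihydroflavonol reductase DFR (Ghi.9795.1.S1_s_at) rose by 1.77 ± 0.35 (SE, adjusted p 0.0187 in limma), against 1.09 ± 0.487 (adjusted p 0.319) with the 3 NaCl arrays. Of 4 probe sets for chalcone synthase CHS2, which makes the first flavonoid intermediate, 1 was called (Ghi.10134.3.S1_s_at, 2.46 ± 0.514, adjusted p 0.0237), and the others differed by 1.73 (Ghi.10134.2.A1_s_at), 0.48 (Ghi.1837.1.A1_at) and 0.98 (Ghi.1837.1.S1_x_at). Dehydroascorbate reductase DHAR1 (Ghi.5065.1.S1_s_at), which regenerates ascorbate, rose by 1.81 ± 0.253 (adjusted p 0.00389), and the peroxidase pod10 (Ghi.8105.1.A1_s_at) by 1.88 ± 0.322 (adjusted p 0.00978), whereas pod3 fell. CCoAMOT2 (Ghi.3490.1.S1_a_at), a methyltransferase of lignin precursors, rose by 1.33 ± 0.316 (adjusted p 0.0361). With the 3 NaCl arrays these differed by 1.11 ± 0.449, 1.23 ± 0.457 and 0.68 ± 0.457 and were not called.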
